A study of Mus musculus with 24 samples.

Results

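The CXC chemokines described here are 10 genes, Cxcl1, Cxcl2, Cxcl3, Cxcl5, Cxcl9, Cxcl10, Cxcl12, Cxcl13, Cxcl14 and Cxcl16, chosen by name as ligands of neutrophils, of interferon-exposed tissue, and of stroma and B cells. All 10 were found among the 51138 genes of the count table, and all 10 passed the filter of at least 10 counts over all samples, with 7 counts (Cxcl9 in 1 (dep)BCP+MSC sample) as the lowest count of any member in any sample. RNA was sequenced from whole subcutaneous implants at week 2, in 6 groups of 4 mice each. The hosts were Foxp3-DTR/eGFP mice of both sexes, 8 to 9 weeks old, a strain in which the receptor for diphtheria toxin is made under Foxp3, the transcription factor of regulatory T cells (Treg). The constructs were granules of biphasic calcium phosphate, a ceramic bone substitute. They were implanted alone (BCP) or with bone marrow-derived mesenchymal stromal cells, MSC (BCP+MSC). Other constructs held MSC primed in culture with 10 nM resolvin E1, a lipid mediator of the resolution of inflammation (BCP+MSC+RvE1). In a further group, preactivated Treg were added to the MSC on the granules and cocultured with them until the whole construct was implanted (BCP+MSC+Treg). In a separate experiment, mice with BCP+MSC constructs were given diphtheria toxin at 50 µg/kg without further treatment ((dep)BCP+MSC), or with daily injections of 1 µM RvE1 at the implant ((dep)BCP+MSC+RvE1inj). Toxin and experiment cannot be told apart when these groups are set against BCP+MSC.

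Chemokines are small secreted proteins that attract leukocytes along a gradient through receptors on the cell surface. Of the CXC family, the ligands of CXCR2 (Cxcl1, Cxcl2, Cxcl3 and Cxcl5) draw neutrophils, and the ligands of CXCR3 (Cxcl9 and Cxcl10) are induced by interferons and draw activated T cells. Cxcl12 acts through CXCR4 and is made by stroma, including the stroma of bone marrow, where it retains blood cell precursors. Cxcl13 draws B cells through CXCR5, Cxcl16 is a membrane-bound ligand of CXCR6, and Cxcl14 is made constitutively in skin and other epithelia.

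The promoters of the neutrophil chemokines Cxcl1, Cxcl2 and Cxcl3 and of Cxcl13 are shown because the first 3 share a sequence element and lie in 1 gene cluster, yet did not all vary together, and because Cxcl13 had the largest difference between groups. Each sequence runs from 250 bases before to 50 bases after the start of the RefSeq gene, 5′ to 3′, in GRCm38.p6, with matches to the motifs searched in capitals.
Cxcl1, chr5:90890995-90891294, plus strand: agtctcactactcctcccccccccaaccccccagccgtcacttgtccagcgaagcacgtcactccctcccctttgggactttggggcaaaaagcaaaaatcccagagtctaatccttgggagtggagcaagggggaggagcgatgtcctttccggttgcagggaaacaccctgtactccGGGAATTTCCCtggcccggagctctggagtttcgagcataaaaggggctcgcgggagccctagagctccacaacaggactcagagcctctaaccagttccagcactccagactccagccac
Cxcl2, chr5:90903649-90903948, plus strand: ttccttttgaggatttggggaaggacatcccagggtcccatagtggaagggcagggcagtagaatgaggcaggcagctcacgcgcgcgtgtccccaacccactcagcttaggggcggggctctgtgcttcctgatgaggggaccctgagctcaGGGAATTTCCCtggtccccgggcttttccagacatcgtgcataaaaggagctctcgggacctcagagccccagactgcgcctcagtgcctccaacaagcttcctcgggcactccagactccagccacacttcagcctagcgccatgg
Cxcl3, chr5:90785851-90786150, plus strand: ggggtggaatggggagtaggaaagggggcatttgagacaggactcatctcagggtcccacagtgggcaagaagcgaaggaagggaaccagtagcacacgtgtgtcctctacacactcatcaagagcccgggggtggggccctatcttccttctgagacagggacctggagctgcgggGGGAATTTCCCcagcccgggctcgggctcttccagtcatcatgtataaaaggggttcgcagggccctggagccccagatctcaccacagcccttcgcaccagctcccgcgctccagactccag
Cxcl13, chr5:95956689-95956988, plus strand: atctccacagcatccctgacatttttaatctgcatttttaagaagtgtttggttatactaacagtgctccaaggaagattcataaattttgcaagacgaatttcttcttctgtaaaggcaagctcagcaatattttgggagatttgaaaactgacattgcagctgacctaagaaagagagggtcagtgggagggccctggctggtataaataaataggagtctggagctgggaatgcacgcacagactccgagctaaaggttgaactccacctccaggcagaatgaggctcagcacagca
The capitals in Cxcl1, Cxcl2 and Cxcl3 are 2 overlapping matches, 1 on each strand, to the NF-kB consensus, the binding motif of a transcription factor of inflammatory signalling. The matched letters were the same in the 3 genes, GGGAATTTCC on the plus strand. They began 71 bases before the start in Cxcl1, 97 in Cxcl2 and 73 in Cxcl3. Both strands were searched for this consensus, for the interferon-response core GAAANNGAA and for the STAT motif TTCNNNGAA. Of 32851 promoters of the same length, 4.51% held the NF-kB consensus, 8.56% the interferon-response core and 8.3% the STAT motif. Promoters were at hand for 8 members. In Cxcl10, the NF-kB consensus matched at 2 places and the interferon-response core at 1. The core was found in Cxcl9 and Cxcl14 as well, and the STAT motif in Cxcl14. In the Cxcl13 and Cxcl12 windows none of the 3 motifs matched. A match describes the letters only and was not tested for binding.

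The 10 genes lie on 4 chromosomes in the GRCm38 annotation. The 4 neutrophil chemokines share a cluster of CXC genes on chromosome 5, with Cxcl5 at chr5:90759360-90761624, Cxcl3 at chr5:90786103-90789600, Cxcl1 at chr5:90891241-90893115 and Cxcl2 at chr5:90903871-90905938, all on the plus strand. Cxcl9 (chr5:92321347-92328079) and Cxcl10 (chr5:92346638-92348889) lie on the minus strand of the same chromosome, and Cxcl13 lies at chr5:95956951-95961068 on the plus strand. Cxcl12 is at chr6:117168535-117181367 on the plus strand, Cxcl14 at chr13:56288647-56296551 and Cxcl16 at chr11:70453983-70459984, both on the minus strand. Exons of Cxcl10 overlap Art3 and those of Cxcl16 overlap Zmynd15 on the opposite strand, and reads were counted without regard to strand, so these counts are uncertain where the genes overlap.

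Levels are CPM, read counts scaled to a common library size with TMM factors, which correct for differences in library composition. Total counts ran from 8482701 to 144417743 per sample, and the floor of 3 counts accordingly from 0.354 down to 0.0208 CPM. Foxp3 itself, the gene that marks the cells targeted by the toxin, had a mean of 0.985 CPM (SD 0.542, n = 4) in (dep)BCP+MSC and of 0.933 CPM (SD 0.240) in BCP+MSC. Its log2 fold change was 0.036 (SE 0.51, edgeR adjusted p = 0.989). With injected RvE1 its mean was 0.705 CPM (SD 0.315, n = 4), with a log2 fold change against BCP+MSC of -0.39 (SE 0.51, edgeR adjusted p = 0.777). Neither difference was called, and on 4 to 83 counts per toxin-treated sample these levels measure the implants at week 2 only. In whole implants, fewer cells of a type and less RNA per cell cannot be told apart, and each group holds different mice.

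Per kilobase of exon, and over all 24 samples, Cxcl16 stood highest with 39.9 ± 13.7 CPM per kb (SD), followed by Cxcl2 with 37.4 ± 27.1 and Cxcl14 with 29.3 ± 16.1. Cxcl12 had 28.5 ± 6.77 CPM per kb, Cxcl5 28.2 ± 15.5 and Cxcl13 18.5 ± 24.5. Cxcl3 had 10.6 ± 6.00 CPM per kb, Cxcl1 7.14 ± 9.28, Cxcl10 3.94 ± 2.33 and Cxcl9 3.61 ± 3.26. Each neighbour in this order differed from the next by less than the larger of their SDs. Cxcl12 varied least between samples, 2.65-fold from 121 to 321 CPM, and Cxcl13 most, 516-fold from 0.183 to 94.4 CPM. The sample lowest in Cxcl13, BCP+MSC replicate 2, had a sum of 6 skeletal muscle markers of 287 CPM. In the other BCP+MSC samples this sum was 10840 to 21470 CPM, and its part in the levels was not tested. Among toxin-treated mice without injection, Cxcl13 led the order with 54.5 ± 22.7 CPM per kb, whereas in BCP+MSC it had 3.43 ± 4.16 and stood near Cxcl1, Cxcl9 and Cxcl10.

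**Figure D1:**
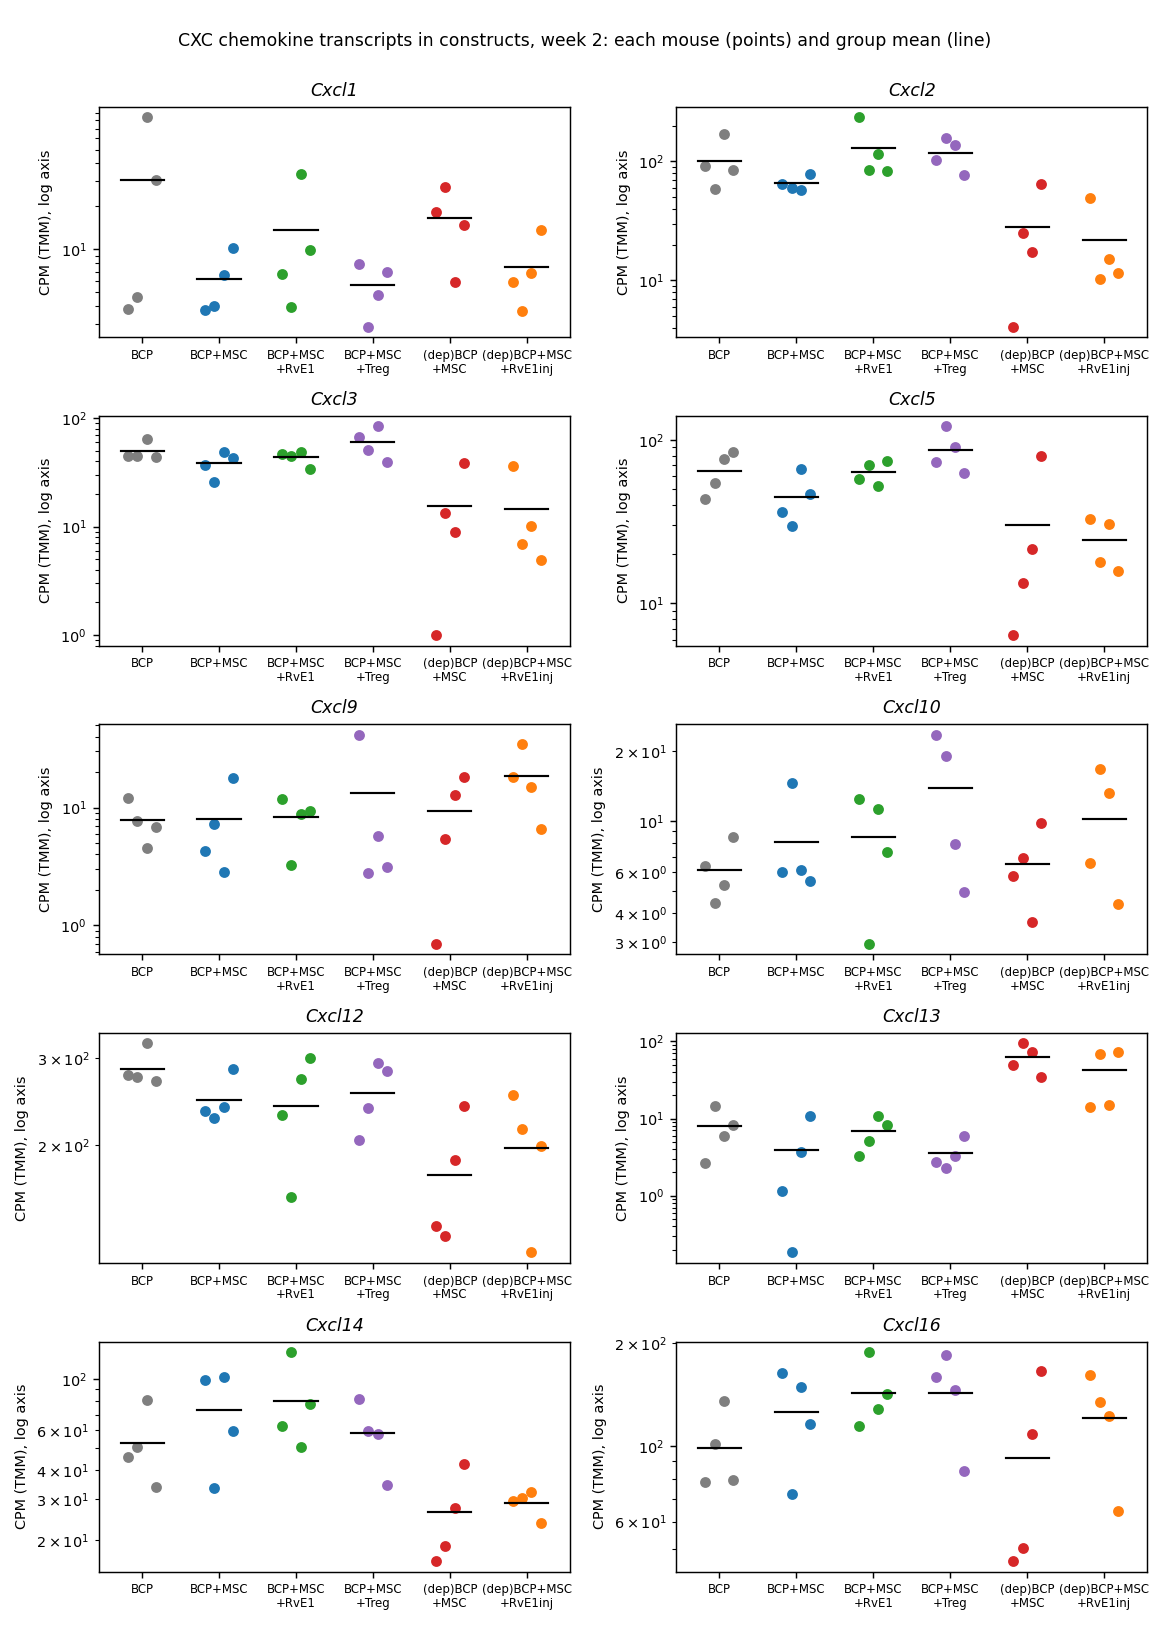
Levels of the 10 CXC chemokines (CPM scaled by TMM, log axis, with a range of its own in each panel) in the 6 groups, with 1 point per mouse and a line at the mean of the 4. All 4 (dep)BCP+MSC samples lie above all 4 BCP+MSC samples for Cxcl13, and (dep)BCP+MSC replicate 1 is the lowest of the 24 samples for Cxcl2, Cxcl3, Cxcl5, Cxcl9, Cxcl14 and Cxcl16. That replicate also has the lowest total, 8482701 counts, and the highest sum of 9 skin and hair markers, 389 CPM. Their part in its levels was not tested.

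To see how the chemokine RNA of the implants followed the cells seeded on the ceramic, the 3 cell-bearing groups were set against BCP. Genes were called where the fold change exceeded 1 on the log2 scale in either direction and edgeR's quasi-likelihood p was under 0.05, either unadjusted or adjusted over all 30564 genes tested. By the adjusted rule edgeR called 0 of the 10 members, and DESeq2 0, in each of the 3 comparisons, where edgeR called 0% of all genes. By the unadjusted rule 1 member was called lower in BCP+MSC (4.32% of all genes were called), 0 in BCP+MSC+RvE1 (8.54%), and 1 lower and 1 higher in BCP+MSC+Treg (5.85%). The median log2 fold change of the members was -0.29, 0.04 and 0.26 in this order, beside 0.06, 0.03 and 0.03 over all genes. The 3 comparisons share the BCP samples.

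Cxcl1, a neutrophil attractant, was the member lower than in BCP. Its level in the 4 BCP samples was 3.85, 4.68, 83.9 and 30.4 CPM. In BCP+MSC it was 3.77, 4.04, 6.57 and 10.3 CPM, and in BCP+MSC+Treg 7.89, 2.88, 4.81 and 6.99 CPM. BCP replicates 3 and 4 were above all samples of BCP+MSC and BCP+MSC+Treg, and the other BCP samples were within the range of each of these groups. The difference in log2 terms was -2.32 (SE 0.83, edgeR adjusted p = 0.888) in BCP+MSC and -2.45 (SE 0.84, edgeR adjusted p = 0.614) in BCP+MSC+Treg. The exact two-sided permutation test gave p = 0.314 and p = 0.343. Without BCP replicate 3 the differences were -1.07 and -1.20, and neither was called. In BCP+MSC+RvE1 the levels were 6.76, 3.97, 34.0 and 9.94 CPM, with a log2 fold change of -1.17 (SE 0.80, edgeR adjusted p = 0.452), which without BCP replicate 3 was 0.083. Il6, a cytokine of acute inflammation, was called lower by the unadjusted rule in the same comparisons, by -2.15 (SE 0.82, edgeR adjusted p = 0.888) in BCP+MSC and -2.75 (SE 0.84, edgeR adjusted p = 0.614) in BCP+MSC+Treg, and ranged from 0.525 to 14.4 CPM within BCP.

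Cxcl10, the interferon-induced ligand of CXCR3, was the member higher in BCP+MSC+Treg. Its level was 23.5, 19.0, 7.93 and 4.93 CPM there and 6.42, 4.42, 5.29 and 8.50 CPM in BCP. Replicates 1 and 2 of BCP+MSC+Treg were above all BCP samples, while the other two lay within the BCP range. Its log2 fold change was 1.18 (SE 0.50, edgeR adjusted p = 0.614), and the exact permutation test gave p = 0.200. Without BCP+MSC+Treg replicate 1 it was 0.80 and not called. In BCP+MSC and BCP+MSC+RvE1 the log2 fold changes of Cxcl10 were 0.40 (SE 0.50, adjusted p = 0.946) and 0.48 (SE 0.50, adjusted p = 0.634, edgeR for both). The related ligand Cxcl11 was called by the unadjusted rule in BCP+MSC+Treg (log2 fold change 2.21, SE 0.74, edgeR adjusted p = 0.614), at 0.330 ± 0.166 CPM against 0.0615 ± 0.0444 CPM in BCP (SD, n = 4). Ifng, the gene of interferon gamma, was called as well (2.27, SE 1.01, edgeR adjusted p = 0.614), with 2 to 76 counts per BCP+MSC+Treg sample.

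Cxcl9, the other interferon-induced ligand of CXCR3, was high in 1 BCP+MSC+Treg sample. Its levels there were 41.5, 2.80, 5.72 and 3.12 CPM, against 12.1, 7.67, 4.52 and 6.86 CPM in BCP. Replicate 1 was above every BCP sample, and of the other BCP+MSC+Treg samples 2 were below every BCP sample. Its log2 fold change was 0.78 (SE 0.86, edgeR adjusted p = 0.748), and without that replicate it was -0.99. In BCP+MSC and BCP+MSC+RvE1 it was 0.046 and 0.11 (SE 0.86 for both), and neither was called. The sample high in Cxcl9 also led its group in the sum of 8 interferon-induced genes, with 823 CPM against a group median of 391 CPM, and in Ifng, with 76 counts.

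Cxcl5, a neutrophil attractant, was called in none of the 3 comparisons with BCP. BCP had 65.0 ± 19.1 CPM, BCP+MSC 44.8 ± 16.0, BCP+MSC+RvE1 63.9 ± 10.4 and BCP+MSC+Treg 87.0 ± 25.7 CPM (SD, n = 4 per group). Its differences from BCP were -0.54 (SE 0.49, adjusted p = 0.926), -0.024 (SE 0.49, adjusted p = 0.999) and 0.42 (SE 0.49, adjusted p = 0.762) on the log2 scale in edgeR. The 95% intervals ran from -1.56 to 0.49, from -1.05 to 1.00 and from -0.60 to 1.45. A 2-fold difference in at least 1 direction lay within each, and in both directions for BCP+MSC+RvE1. For the 6 other members, the log2 fold changes against BCP ran from -1.19 (Cxcl13 in BCP+MSC+Treg) to 0.61 (Cxcl14 in BCP+MSC+RvE1), and none was called.

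Among the cell-bearing groups, the members were compared to ask how RvE1 priming and Treg coculture differed from plain MSC and from each other. In BCP+MSC+RvE1 against BCP+MSC, BCP+MSC+Treg against BCP+MSC, and BCP+MSC+Treg against BCP+MSC+RvE1, edgeR called 0 members by either rule and DESeq2 0 by the adjusted rule. The unadjusted rule called 2.5%, 2.56% and 2.22% of all genes in edgeR. The adjusted rule called 0% there, and at most 3, 0 and 2 of all genes under any other setting. The estimates ran from -1.28 (Cxcl1, Treg coculture against RvE1 priming) to 1.15 (Cxcl1, RvE1 priming against BCP+MSC) on the log2 scale. With RvE1 priming 9 of 10 estimates were above 0, with a median of 0.18 beside -0.04 over all genes.

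Cxcl2, a neutrophil attractant made by macrophages and neutrophils, was the member whose levels did not overlap between BCP+MSC+RvE1 and BCP+MSC. With RvE1 priming the levels were 234, 85.4, 116 and 83.8 CPM. In plain BCP+MSC they were 64.9, 59.5, 57.8 and 78.9 CPM. All 4 primed constructs were above all 4 unprimed ones, with 1 of them far above the rest. A log2 fold change of 0.99 (SE 0.60, edgeR adjusted p = 0.924) missed both rules, and the exact permutation test gave p = 0.0286, the smallest it can give. In BCP+MSC+Treg the Cxcl2 levels were 103, 157, 138 and 76.2 CPM, and 3 of 4 were above all BCP+MSC samples (log2 fold change 0.86, SE 0.60, edgeR adjusted p = 1). The sum of 9 neutrophil markers did not overlap between BCP+MSC+RvE1, at 417 to 619 CPM, and BCP+MSC, at 247 to 379 CPM, and was 283 to 1067 CPM in BCP+MSC+Treg. None of the 9 was at 0 in the first 2 groups, and their part in the Cxcl2 levels was not tested. Permutation p-values of the members were not adjusted over the 90 tests made. How many of all genes failed to overlap was not counted, here or in the toxin-treated groups, so non-overlap describes the levels only.

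**Figure D2:**
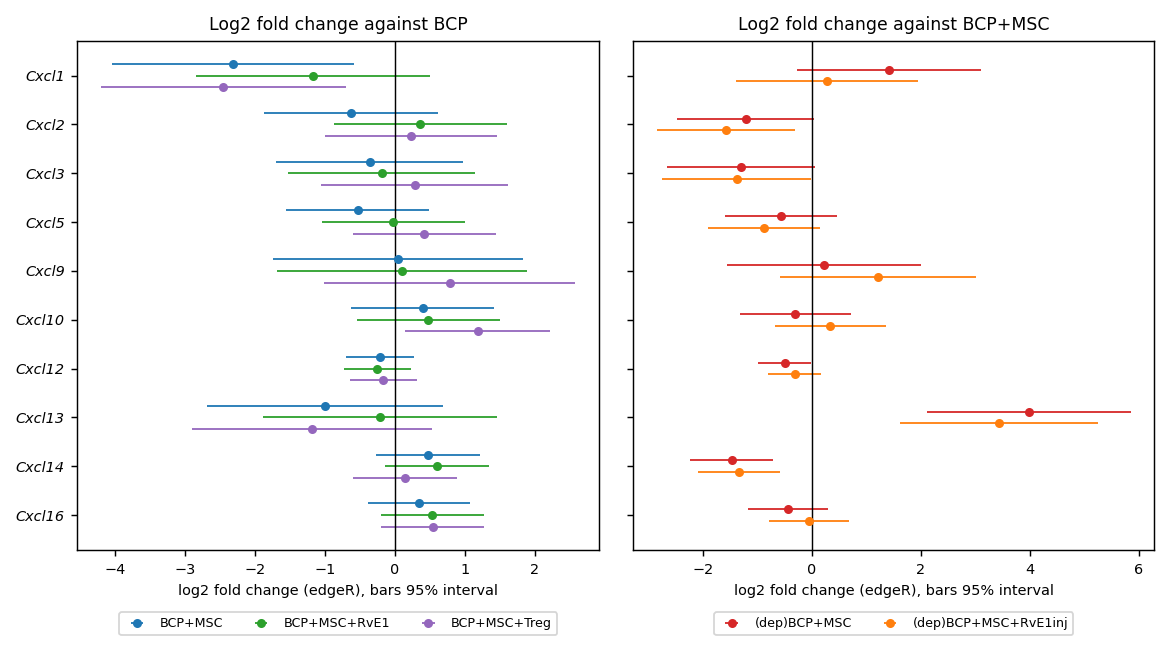
Log2 fold changes of the 10 CXC chemokines (edgeR) with 95% intervals, on the left in the 3 cell-bearing groups against BCP and on the right in both toxin-treated groups against BCP+MSC. Cxcl13 at 3.98 and 3.44 and Cxcl14 at -1.48 and -1.34 stand apart from 0 on the right, while most intervals on the left span 0.

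The largest differences appeared in mice given toxin. Cxcl13 rose and Cxcl14 fell by the adjusted rule in (dep)BCP+MSC against BCP+MSC, 2 of 10 members, beside 3.14% of all genes. By the unadjusted rule the same 2 members were called, where 13.2% of all genes were. The median of the members was -0.47, beside -0.04 over all genes. In (dep)BCP+MSC+RvE1inj against BCP+MSC, a comparison added after the first had been seen and sharing its BCP+MSC samples, 0 members passed the adjusted rule in edgeR (0.661% of all genes) and 2 in DESeq2. Over the settings other than leaving out 1 mouse, DESeq2 among them, this rule called 40 to 832 of all genes. By the unadjusted rule, edgeR called Cxcl13 higher and Cxcl2, Cxcl3 and Cxcl14 lower, 4 of 10 members beside 9.45% of all genes. Leaving out (dep)BCP+MSC+RvE1inj replicate 2 or replicate 4 left 2 of these calls.

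Cxcl13, the attractant of B cells, was at 49.1, 94.4, 72.2 and 35.1 CPM in (dep)BCP+MSC. In BCP+MSC it was at 1.15, 0.183, 3.69 and 10.8 CPM, with 12 counts in the lowest sample. With injected RvE1 it was at 14.2, 68.9, 14.8 and 73.7 CPM. Every toxin-treated sample was above every BCP+MSC sample, and the injected group fell into a high pair and a low pair. Its log2 fold change was 3.98 in (dep)BCP+MSC (SE 0.89, 15.8-fold, edgeR adjusted p = 0.0158) and 3.44 in (dep)BCP+MSC+RvE1inj (SE 0.87, edgeR adjusted p = 0.0757). The exact permutation test gave p = 0.0286 for both, the smallest possible. In BCP, BCP+MSC+RvE1 and BCP+MSC+Treg the levels of Cxcl13 lay between 2.30 and 14.6 CPM, so that the lowest (dep)BCP+MSC sample was above all samples of mice without toxin, and the lowest injected sample, at 14.2 CPM, was just below the highest of them, BCP replicate 2. The adjusted p in (dep)BCP+MSC was above 0.05 when BCP+MSC replicate 1 or 3 was left out (0.0547 and 0.0551) and when edgeR was fitted to these 2 groups alone (0.137). Over all other settings it stayed under 0.05, between 3.63e-06 with DESeq2 and 0.0479.

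B cell genes were not called higher along with Cxcl13 in (dep)BCP+MSC. The sum of 6 B cell markers (Cd79a, Cd79b, Ms4a1, Cd22, Blk and Pax5) was 20.7 to 46.0 CPM there, against 41.5 to 59.3 CPM in BCP+MSC, and 2 of the 6 were at 0 in (dep)BCP+MSC replicate 1. Of the 6, 0 were called higher and 1 lower by the unadjusted rule, where 13.2% of all genes were called. Cxcr5, the receptor of Cxcl13, had 0.299, 0.675, 0.176 and 0.315 CPM, on 3 to 28 counts, against 0.709, 0.839, 0.530 and 0.936 CPM in BCP+MSC (log2 fold change -1.03, SE 0.66, edgeR adjusted p = 0.392). The injected group had a B cell sum of 35.2 to 85.9 CPM and Cxcr5 at 1.32, 0.323, 0.299 and 2.49 CPM. Replicates 1 and 4 had the higher Cxcr5 and B cell sums, whereas Cxcl13 was high in replicates 2 and 4. Against (dep)BCP+MSC, Cxcr5 was called by the unadjusted rule (1.58, SE 0.67, edgeR adjusted p = 0.668). By the same rule 5 of 6 B cell genes were called higher, beside 5.13% of all genes. By the adjusted rule 0 of the 6 were called. Over the 24 samples the genes most like Cxcl13 were Fkbp5 (Spearman's rho 0.89), Serpina3m (0.87) and Fam107a (0.86), of 14773 genes with a mean of at least 1 CPM. The samples differ by group and library, so these correlations describe the pattern only.

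Cxcl14 was at 16.1, 18.8, 27.6 and 42.7 CPM in (dep)BCP+MSC and at 98.5, 33.4, 102 and 59.3 CPM in BCP+MSC. With injected RvE1 it was at 29.6, 30.5, 32.3 and 23.6 CPM, a narrow range. The injected group lay under all BCP+MSC samples, and in (dep)BCP+MSC 3 of 4 samples did. The log2 fold change was -1.48 (SE 0.37, edgeR adjusted p = 0.0233) in (dep)BCP+MSC and -1.34 (SE 0.37, edgeR adjusted p = 0.0894) in (dep)BCP+MSC+RvE1inj. The exact permutation test gave p = 0.0571 and p = 0.0286. The adjusted p in (dep)BCP+MSC exceeded 0.05 without BCP+MSC replicate 1 (0.0822) or 3 (0.0827), without (dep)BCP+MSC replicate 1 (0.1003) or 2 (0.1001), with a covariate for skin genes (0.0627) and with these 2 groups alone (0.106). It stayed under 0.05 in the other settings, between 0.00282 and 0.0400. The sum of 6 fibroblast and stromal markers moved the same way, with 4198 to 9969 CPM in (dep)BCP+MSC and 2876 to 11420 CPM in (dep)BCP+MSC+RvE1inj against 11020 to 27710 CPM in BCP+MSC. Of the 6, 3 were called lower by the unadjusted rule in each, where 13.2% and 9.45% of all genes were called. The sum of 9 skin and hair markers was 14.2 to 389 CPM in (dep)BCP+MSC and 2.51 to 40.3 CPM in BCP+MSC, and up to 4 of the 9 were at 0 in a BCP+MSC sample. Of these 9, 3 were called higher and 1 lower in (dep)BCP+MSC by the unadjusted rule, beside 13.2% of all genes. Their part in the Cxcl14 result was not tested, beyond the covariate for skin genes. The genes most like Cxcl14 over the 24 samples were Pdgfb (rho 0.96), Calm3 (0.96) and Foxs1 (0.96).

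Cxcl12, the stromal ligand of CXCR4, was at 137, 131, 187 and 240 CPM in (dep)BCP+MSC and 234, 227, 239 and 285 CPM in BCP+MSC. Of the 4 (dep)BCP+MSC samples, 3 were below the lowest BCP+MSC sample. Its difference of -0.50 on the log2 scale (SE 0.23, edgeR adjusted p = 0.227) did not reach the fold of either rule. With injected RvE1 it was -0.32 (SE 0.23, adjusted p = 0.569, edgeR). Its receptor Cxcr4 was at 92.8 ± 2.84 CPM in (dep)BCP+MSC and 53.0 ± 7.37 CPM in BCP+MSC (SD, n = 4), a log2 fold change of 0.81 (SE 0.29, edgeR adjusted p = 0.113).

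The neutrophil chemokines Cxcl2 and Cxcl3 lay below the BCP+MSC range in at least 3 of 4 mice of each toxin-treated group, and Cxcl5 in 3 of 4 mice without and 2 of 4 with injected RvE1. Cxcl2 was at 4.09, 25.1, 17.2 and 65.0 CPM in (dep)BCP+MSC and at 49.6, 10.2, 15.2 and 11.6 CPM in (dep)BCP+MSC+RvE1inj. Cxcl3 was at 0.997, 13.4, 8.98 and 38.7 CPM, and at 36.6, 6.91, 10.1 and 4.92 CPM, in the same order. Cxcl5 was at 6.38, 13.4, 21.4 and 79.3 CPM, and at 33.0, 17.9, 30.7 and 15.7 CPM. The highest sample of each group was (dep)BCP+MSC column 5, named by its column since the table numbers this group 1, 2, 4 and 5, or (dep)BCP+MSC+RvE1inj replicate 1. In BCP+MSC, Cxcl2 ranged from 57.8 to 78.9 CPM, Cxcl3 from 26.0 to 48.3 CPM and Cxcl5 from 29.7 to 66.3 CPM.

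None of the 3 was called in (dep)BCP+MSC, with log2 fold changes of -1.22 (SE 0.60, adjusted p = 0.260) for Cxcl2, -1.30 (SE 0.65, adjusted p = 0.269) for Cxcl3 and -0.57 (SE 0.49, adjusted p = 0.558) for Cxcl5 in edgeR. Without column 5, singled out after its values were seen, they were -2.07, -2.28 and -1.70, and 5 members in place of 2 passed the adjusted rule. Over the 8 fits that left out 1 mouse, this rule called 422 to 1354 of all genes, beside 959 with all mice. Under injected RvE1, Cxcl2 (-1.58, SE 0.61, edgeR adjusted p = 0.250) and Cxcl3 (-1.39, SE 0.65, edgeR adjusted p = 0.355) were called by the unadjusted rule. For Cxcl5 the log2 fold change was -0.88 (SE 0.50, edgeR adjusted p = 0.448). All 4 injected samples were below all BCP+MSC samples in Cxcl2, and the exact permutation test gave p = 0.0286. Without replicate 1 the estimates were -2.38 for both Cxcl2 and Cxcl3, and both were called by the unadjusted rule. The call of Cxcl2 was kept in 6 of 8 fits that left out 1 mouse and was lost without replicate 2 or 4. That of Cxcl3 was kept in 2 of 8, without replicate 1 or without BCP+MSC replicate 2.

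Cxcr2, the receptor of these ligands, was highest in the same mouse of each toxin-treated group as they were. It was at 0.798, 3.90, 9.13 and 22.4 CPM in (dep)BCP+MSC and at 19.3, 6.37, 3.21 and 5.15 CPM in (dep)BCP+MSC+RvE1inj, with 20.0 to 22.2 CPM in BCP+MSC. Among the other mice the order differed, and (dep)BCP+MSC+RvE1inj replicate 3, the lowest of its group in Cxcr2, was next to the highest in Cxcl2 and Cxcl3. Cxcr2 was called lower by the unadjusted rule in (dep)BCP+MSC (-1.23, SE 0.58, edgeR adjusted p = 0.235) and in (dep)BCP+MSC+RvE1inj (-1.32, SE 0.58, edgeR adjusted p = 0.316). Il1b, an inducer of these chemokines, was at 1.70, 2.07, 17.3 and 76.6 CPM, and at 56.4, 8.24, 16.0 and 9.48 CPM, with 61.5 to 111 CPM in BCP+MSC. It was called by the unadjusted rule in (dep)BCP+MSC+RvE1inj (-1.84, SE 0.87, edgeR adjusted p = 0.360), as was Tnf (-1.04, SE 0.36, edgeR adjusted p = 0.196).

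The same neutrophil sum was 110, 174, 191 and 632 CPM in (dep)BCP+MSC and 446, 150, 217 and 323 CPM in (dep)BCP+MSC+RvE1inj, against 247 to 379 CPM in BCP+MSC. The highest sums belonged to the same 2 samples. Of the 9, 4 were called higher and 0 lower in (dep)BCP+MSC by the unadjusted rule, where 13.2% of all genes were called. In (dep)BCP+MSC+RvE1inj 3 were called higher and 0 lower, beside 9.45% of all genes. By the adjusted rule 1 was called higher in (dep)BCP+MSC. With the mean log2 level of these markers as a covariate, the log2 fold change of Cxcl2 was -2.31 in (dep)BCP+MSC and -2.41 in (dep)BCP+MSC+RvE1inj, both called by the unadjusted rule. This covariate weights each marker alike and, unlike the sum, was not lower in (dep)BCP+MSC, with 2.86 to 5.19 against 2.21 to 2.90 in BCP+MSC and 2.31 to 4.30 in (dep)BCP+MSC+RvE1inj.

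Cxcl1 did not move with Cxcl2, Cxcl3 and Cxcl5. It was at 18.1, 27.4, 5.87 and 14.8 CPM in (dep)BCP+MSC and at 5.96, 3.73, 6.79 and 13.7 CPM in (dep)BCP+MSC+RvE1inj, beside 3.77 to 10.3 CPM in BCP+MSC. Of the 4 (dep)BCP+MSC samples, 3 were above all BCP+MSC samples, among them the replicate with the lowest Cxcl2 and Cxcl3. The log2 fold change was 1.42 (SE 0.81, edgeR adjusted p = 0.336), with an interval from -0.27 to 3.11. With injected RvE1 it was 0.28 (SE 0.80, adjusted p = 0.923, edgeR).

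Over the 24 samples, Spearman's rho was 0.86 between Cxcl2 and Cxcl3, 0.77 between Cxcl2 and Cxcl5 and 0.78 between Cxcl3 and Cxcl5, but 0.032 between Cxcl1 and Cxcl2, -0.031 between Cxcl1 and Cxcl3 and 0.027 between Cxcl1 and Cxcl5. Within the groups, after each group's mean was removed, Pearson's r was 0.90 between Cxcl2 and Cxcl3 and 0.12 between Cxcl1 and Cxcl2. The genes most like Cxcl2 were Ccl3 (rho 0.96), Il1b (0.93) and Trem1 (0.92), those most like Cxcl3 were Clec4d (0.86), Pilrb1 (0.86) and Cxcl2, and those most like Cxcl5 were Snapc1 (0.86), Osm (0.85) and Crem (0.85). For Cxcl1 they were Apold1 (0.70), Spry1 (0.69) and Sik1 (0.68). Cxcl1, Cxcl2 and Cxcl3 carry the same NF-kB consensus letters in the promoters printed above, while rho between Cxcl1 and each of the other two was near 0. These values share libraries and their depth, and describe the 24 samples only.

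**Figure D3:**
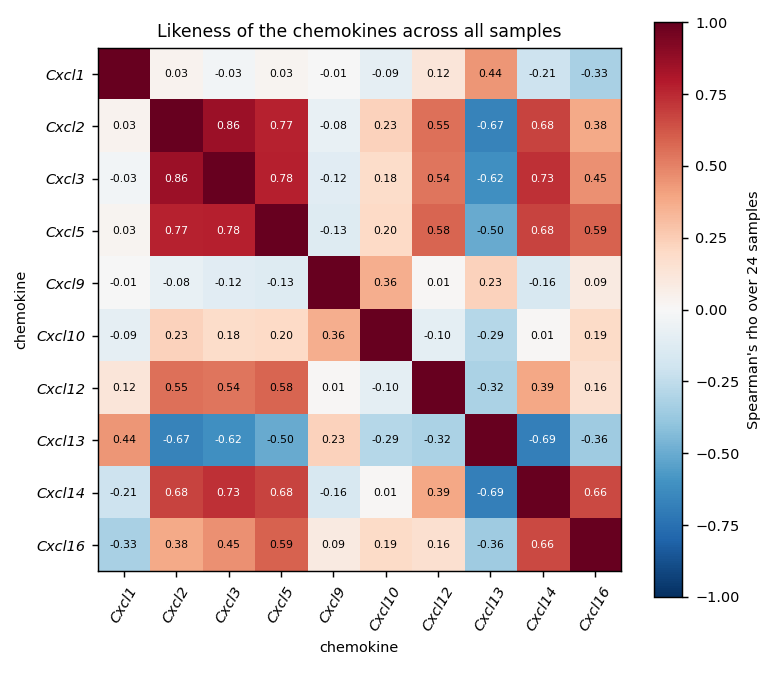
Spearman's rho between each pair of the 10 CXC chemokines over the 24 samples (log2 CPM), from -1 in blue to 1 in red. Cxcl2, Cxcl3 and Cxcl5 form a block at 0.77 to 0.86, Cxcl1 is near 0 with all of them, and Cxcl13 is negative with Cxcl2 (-0.67) and Cxcl14 (-0.69). Within the groups, Pearson's r of Cxcl13 was -0.25 with Cxcl2 and 0.038 with Cxcl14.

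The pair Cxcl9 and Cxcl10 was not called in toxin-treated mice. Without injection, Cxcl9 was at 0.698, 5.44, 12.7 and 18.2 CPM and Cxcl10 at 5.78, 6.89, 3.65 and 9.78 CPM. With injection, Cxcl9 was at 18.3, 34.4, 15.1 and 6.51 CPM and Cxcl10 at 6.59, 16.7, 13.1 and 4.38 CPM. The ranges of both groups overlapped with each other and with BCP+MSC for each gene. Against BCP+MSC the log2 fold changes of Cxcl9 were 0.22 (SE 0.85, adjusted p = 0.928) and 1.22 (SE 0.86, adjusted p = 0.562), and those of Cxcl10 -0.31 (SE 0.49, adjusted p = 0.783) and 0.34 (SE 0.49, adjusted p = 0.810), all in edgeR. Cxcr3, the receptor of both, was at 4.21 ± 2.29 CPM in (dep)BCP+MSC, 6.29 ± 1.97 CPM in (dep)BCP+MSC+RvE1inj and 4.23 ± 1.07 CPM in BCP+MSC (SD, n = 4), with log2 fold changes of 0.0062 (SE 0.42, adjusted p = 1) and 0.58 (SE 0.42, adjusted p = 0.570) in edgeR. The sum of the 8 interferon-induced genes was 143 to 512 CPM, 365 to 930 CPM and 309 to 492 CPM in the same order. Of the 8, 3 were called lower in (dep)BCP+MSC and 2 higher in (dep)BCP+MSC+RvE1inj by the unadjusted rule, beside 13.2% and 9.45% of all genes. Ifng was called higher by the unadjusted rule in both toxin-treated groups (2.10, SE 0.95, edgeR adjusted p = 0.213, and 3.24, SE 0.98, edgeR adjusted p = 0.129). The genes most like Cxcl9 over the 24 samples were the interferon-induced Gbp2 (rho 0.90) and Gbp6 (0.85), with Lap3 (0.83). Those most like Cxcl10 were the interferon-induced Ifit3b (0.74), Isg15 (0.73) and Rtp4 (0.71), and rho between Cxcl9 and Cxcl10 was 0.36.

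Cxcl16, the ligand of CXCR6, was at 46.0, 50.2, 108 and 165 CPM in (dep)BCP+MSC, at 161, 135, 122 and 64.4 CPM in (dep)BCP+MSC+RvE1inj and at 164, 72.5, 149 and 116 CPM in BCP+MSC. The ranges overlapped, with log2 fold changes of -0.44 (SE 0.35, adjusted p = 0.517) and -0.056 (SE 0.35, adjusted p = 0.977) in edgeR. Its receptor Cxcr6, carried by memory T cells and innate-like lymphocytes, rose by the adjusted rule in both groups, from 3.21 ± 0.608 CPM in BCP+MSC to 10.8 ± 8.52 CPM in (dep)BCP+MSC (log2 fold change 1.76, SE 0.50, edgeR adjusted p = 0.045) and 15.0 ± 2.50 CPM in (dep)BCP+MSC+RvE1inj (2.22, SE 0.50, edgeR adjusted p = 0.0355). The lowest (dep)BCP+MSC sample, at 1.60 CPM, was below all BCP+MSC samples. The sum of 5 T cell markers was 16.8 to 80.5 CPM in (dep)BCP+MSC and 55.4 to 87.1 CPM in (dep)BCP+MSC+RvE1inj, against 13.5 to 32.6 CPM in BCP+MSC, and its part in the Cxcr6 result was not tested. The genes most like Cxcl16 were Med11 (rho 0.93), AA467197 (0.93) and Arpc5 (0.92), and those most like Cxcl12 included Ctsc (0.91) and Il27ra (0.88).

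**Figure D4:**
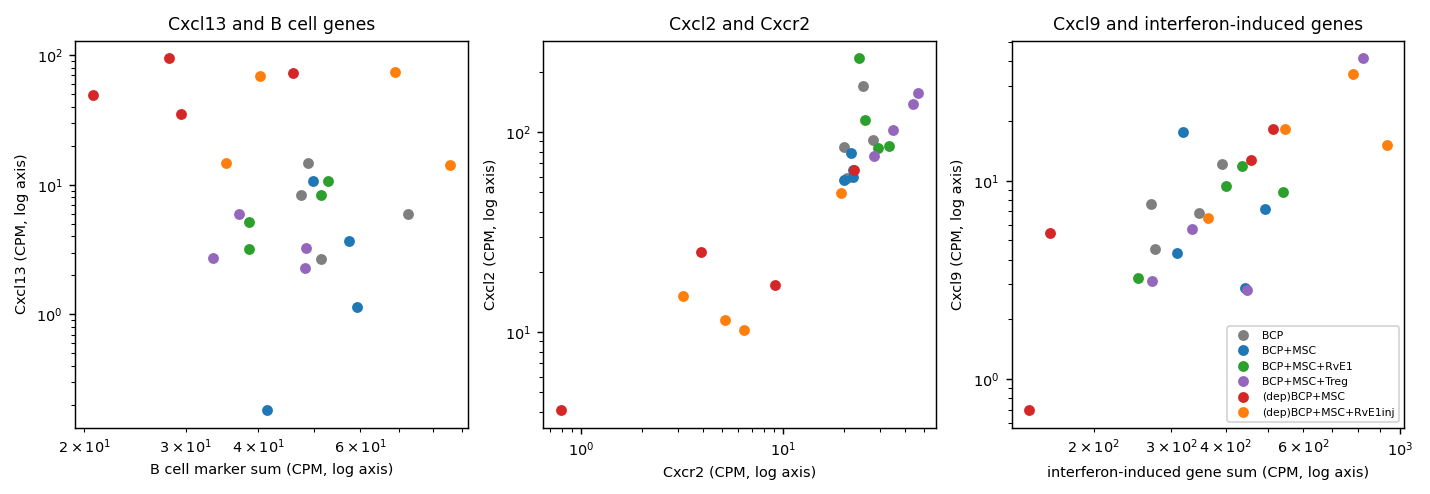
Each of the 24 samples by group, on log axes of CPM, with Cxcl13 against the sum of 6 B cell markers, Cxcl2 against Cxcr2, and Cxcl9 against the sum of 8 interferon-induced genes. The (dep)BCP+MSC samples have high Cxcl13 at B cell sums of 20.7 to 46.0 CPM, and samples low in Cxcl2 are low in Cxcr2.

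Of the lists around the members in (dep)BCP+MSC against BCP+MSC, 1 of 8 receptors was called higher (Cxcr6) and 1 lower (Cxcr2) by the unadjusted rule, with a median log2 fold change of 0.22 beside -0.04 over all genes. This rule called 13.2% of all genes there. Of 5 other CXC ligands 1 was called higher (Cxcl17, a mucosal chemokine, 3.64, SE 1.55, edgeR adjusted p = 0.190) and 1 lower (Ppbp, a platelet chemokine, -1.71, SE 0.54, edgeR adjusted p = 0.0738). Of 8 cytokines that act upstream of chemokines 7 were tested, Il17a having too few counts, and 2 were called higher, Ifng and Il17f. Il17f, a cytokine that induces neutrophil chemokines, had 0 counts in all 4 BCP+MSC samples and 0 to 12 counts in (dep)BCP+MSC (edgeR adjusted p = 0.0279), with a mean of 0.133 CPM. In (dep)BCP+MSC+RvE1inj against BCP+MSC, 1 receptor was called higher and 2 lower (Cxcr2 and Cxcr1, the latter -1.52, SE 0.57, edgeR adjusted p = 0.232), 1 other ligand higher (Cxcl17) and 1 lower (Ppbp), and 2 cytokines higher (Ifng and Il17f) and 2 lower (Il1b and Tnf). By the unadjusted rule 9.45% of all genes were called there. In the comparisons of groups without toxin, the calls in these lists beside those given above were Cxcl11 in BCP+MSC+Treg against BCP+MSC (1.62, SE 0.70, edgeR adjusted p = 1) and no other.

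Local RvE1 injection was asked about within the toxin-treated mice. In (dep)BCP+MSC+RvE1inj against (dep)BCP+MSC, edgeR called 0 members by either rule and DESeq2 0 by the adjusted one, while 5.13% of all genes were called by the unadjusted rule. The median of the members was 0.023, beside 0.0013 over all genes, with 5 estimates above 0 and 5 below. Cxcl9 was higher in 3 of 4 injected samples than the median of (dep)BCP+MSC, with a log2 fold change of 0.99 (SE 0.86, edgeR adjusted p = 0.751) and an interval from -0.80 to 2.79. For Cxcl10 it was 0.64 (SE 0.50, edgeR adjusted p = 0.733), again with 3 of 4 samples above that median. For Cxcl1 it was -1.14 (SE 0.81, edgeR adjusted p = 0.717), with 4 of 4 injected samples below the median. Beside these, Cxcr5 and the lymphotoxin gene Ltb (1.32, SE 0.59, edgeR adjusted p = 0.668) were called higher by the unadjusted rule among the receptors and cytokines. Of the 8 interferon-induced genes, 4 were called higher by the unadjusted rule, beside the 5.13% of all genes, and 0 by the adjusted rule. Their median log2 fold change was 0.99. For Cxcl5 the log2 fold change was -0.31 (SE 0.50, edgeR adjusted p = 0.880), and without (dep)BCP+MSC column 5 it was 0.82. The exact permutation p-values of Cxcl1, Cxcl5, Cxcl9 and Cxcl10 ran from 0.143 to 0.800. At 4 mice per group these intervals leave room for differences of 2-fold and more in each of the 4 genes.

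Whether injected RvE1 in toxin-treated mice and RvE1 priming in untreated mice changed the members differently was tested as the difference between both effects in the same model. By either rule edgeR called 0 members, and DESeq2 0 by the adjusted rule, while 4% of all genes were called by the unadjusted rule. Cxcl1 came nearest, with -2.29 (SE 1.14, edgeR adjusted p = 1.00), from an injection effect of -1.14 and a priming effect of 1.15. For Cxcl2 the difference was -1.36 (SE 0.84), and for the others it ran from -1.34 to 0.93.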

How the data were processed

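Bulk RNA from whole implants of 24 mice was analysed. The authors made stranded mRNA libraries, aligned paired reads with HISAT2 2.0.5 and counted read pairs on exons with featureCounts 1.5.2 and GENCODE M13 (GRCm38). The deposited values are raw counts per gene, without normalization. Since the counting command sets neither strand nor multi-mapping nor overlap options, strand was ignored, and read pairs that were multi-mapped or ambiguous between genes went uncounted. All 24 count columns were used. For (dep)BCP+MSC the table has columns 1, 2, 4 and 5 where the labels have replicates 1 to 4, and columns 4 and 5 entered the group without a replicate number.

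Counts of 30564 genes with at least 10 counts in all were fitted in edgeR 4.0.16 (R 4.3.3) in 1 quasi-likelihood model of the 6 groups with TMM and robust dispersions. Benjamini-Hochberg adjustment ran over all genes of a comparison. SEs are the log2 fold change over the root of F. Exact two-sided permutation tests used log2 CPM (prior count 2) over 70 arrangements, with 0.0286 as the smallest p. Alternatives were RLE size factors, other filters, DESeq2 1.42.0, fits of 2 groups, a replicate block, covariates and leaving out each mouse. The fit was tested on simulated counts.

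The members, lists and tests were chosen with earlier results of these data known. Every member is named. Full statistics are given for pairs past the unadjusted rule and for Cxcl1, Cxcl5, Cxcl9 and Cxcl10 against BCP and with injected RvE1, and further for the toxin comparisons, chosen after their values were seen. Replicates are different mice. Promoters are from RefSeq (GRCm38.p6). Figures were drawn with matplotlib 3.10.9. Of the B cell list fixed for this work 1 marker, and of the genes most like Cxcl12 1 gene, are not reported here.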

Additional observations from a re-analysis of the deposited data

Results flagged for a closer look

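In 60 sets of 4 samples, 10 members in 6 groups, the highest or lowest sample was compared with its group by Dixon's test at 95%, which flags about 1 set in 20 by chance. It marked 3 samples. Cxcl3 was at 64.7 CPM in BCP replicate 3, against 43.8 to 44.8 CPM in the other BCP samples. Cxcl12 was at 321 CPM in the same replicate, against 270 to 277 CPM. Cxcl10 was at 14.6 CPM in BCP+MSC replicate 2, against 5.50 to 6.16 CPM in the other BCP+MSC samples.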

How the results depend on the processing

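The text's calls depended on few samples per group, and counts below are of the 10 members unless all genes are named. Over all settings but leaving out 1 mouse, the unadjusted rule called 548 to 1529 of all genes in BCP+MSC against BCP. It called 892 to 2010 in BCP+MSC+Treg against BCP and 237 to 1000 in BCP+MSC+RvE1 against BCP+MSC. In (dep)BCP+MSC against BCP+MSC it called 2723 to 5340, and the adjusted rule 157 to 2685. In (dep)BCP+MSC+RvE1inj against BCP+MSC the adjusted rule called 40 to 832. By the unadjusted rule, the count in BCP+MSC against BCP was 0 with a covariate for sex-linked genes, that in BCP+MSC+Treg against BCP was 1 with the skin covariate, the neutrophil covariate or the replicate block, and that in BCP+MSC+RvE1 against BCP+MSC was 1 with only 2 groups fitted. In (dep)BCP+MSC against BCP+MSC it was 5 with DESeq2, the sex-linked or the neutrophil covariate, and by the adjusted rule it was 0 with 2 groups, 1 with the skin and 4 with the neutrophil covariate. In (dep)BCP+MSC+RvE1inj against BCP+MSC the adjusted count was 1 with filterByExpr or the skin covariate and 2 with DESeq2 or the neutrophil covariate. Against (dep)BCP+MSC the unadjusted count was 1 with 2 groups, and for the difference between both RvE1 effects it was 1 with DESeq2. The neutrophil covariate, the comparison of (dep)BCP+MSC+RvE1inj with BCP+MSC and the fit of 22 numbered samples were added after the data were seen.

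Same-numbered samples of different groups did not deviate together, with a median r of 0.004 over 50 pairs, 19 of them over 0.1. For differently numbered samples it was -0.041 over 150 pairs, 54 of them over 0.1. The numbers were therefore not taken to pair mice. The fit with the replicate block leaves out (dep)BCP+MSC columns 4 and 5, which have no number. With the block, the unadjusted and adjusted counts were 7 and 5 in (dep)BCP+MSC against BCP+MSC, and without it on the same 22 samples 6 and 4. With the block, the adjusted count was 1 in (dep)BCP+MSC+RvE1inj against BCP+MSC. Against (dep)BCP+MSC the unadjusted count was then 4, and for the difference between RvE1 effects 3, or 3 and 2 without the block. Over all settings but leaving out 1 mouse, the unadjusted rule called 664 to 3081 of all genes against (dep)BCP+MSC and 447 to 2704 for that difference. The adjusted rule called 0 to 615 and 0 to 119 of all genes there. With the block, Cxcl9 was at -1.44 in (dep)BCP+MSC (-1.32 without it) and Cxcl5 at 1.25 with injection (1.30 without it), both turned in sign.

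Leaving out each mouse in turn gave unadjusted counts of 0 to 2 in BCP+MSC, 0 to 1 in BCP+MSC+RvE1 and 0 to 2 in BCP+MSC+Treg against BCP, 0 to 1 in both primed groups against BCP+MSC, 2 to 5 in (dep)BCP+MSC and 2 to 4 in (dep)BCP+MSC+RvE1inj against BCP+MSC, and 0 to 2 for the difference between RvE1 effects. Adjusted counts were 0 to 5 and 0 to 1 in the toxin-treated groups against BCP+MSC. Of all genes, the adjusted rule called 422 to 1354 and 44 to 204 there, and the unadjusted rule 3140 to 4356 and 2174 to 3026. Against BCP the unadjusted rule called 927 to 1807, 1536 to 3468 and 1082 to 2780 of all genes, in the order above. In (dep)BCP+MSC the adjusted count was 0 without BCP+MSC replicate 1 or 3, 1 without (dep)BCP+MSC replicate 1 or 2, and 5 without column 5. The log2 fold changes that turned in sign were uncalled as reported. Against BCP, leaving out a mouse gave Cxcl9 -0.69 to 0.36 in BCP+MSC, -0.11 to 0.42 in BCP+MSC+RvE1 and -0.99 to 1.13 in BCP+MSC+Treg, Cxcl10 -0.072 to 0.59 in BCP+MSC, and Cxcl1 -2.15 to 0.083 and Cxcl5 -0.15 to 0.13 in BCP+MSC+RvE1. Against BCP+MSC it gave Cxcl9 -0.32 to 0.96 and Cxcl10 -0.58 to 0.16 in (dep)BCP+MSC, and Cxcl1 -0.19 to 0.65, Cxcl10 -0.012 to 0.81 and Cxcl16 -0.22 to 0.14 in (dep)BCP+MSC+RvE1inj. With injection Cxcl5 was -0.65 to 0.82. Under other settings, Cxcl9 in BCP+MSC against BCP was -0.019 with RLE, -0.025 with DESeq2, -0.0007 with 2 groups and -0.018 with the neutrophil covariate, which also gave -0.20 for Cxcl9 in BCP+MSC+RvE1, -0.18 for Cxcl5 in BCP+MSC+Treg, -0.33 for Cxcl9 in (dep)BCP+MSC and 0.15 for Cxcl5 with injection. Cxcl5 was 0.031 in BCP+MSC with the sex-linked covariate and 0.0066 in BCP+MSC+RvE1 with 2 groups, and Cxcl1 was -0.064 in (dep)BCP+MSC+RvE1inj with the sex-linked covariate. The cause of these changes was not tested. Of 648 log2 fold changes under other settings, 562 kept their sign and their side of the unadjusted threshold. Depth limits Cxcr5, Cxcl11, Cxcl17, Il17f and Ifng, which had few counts in many samples.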
